A study of Mus musculus with 4 samples.

Results

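The 9 genes described here act in the retinoid pathway: the retinoic acid binding proteins Crabp1 and Crabp2, the nuclear receptors Rara, Rarb and Rarg, the synthesis enzymes Aldh1a2, Aldh1a3 and Rdh10, and the retinal reductase Dhrs3. They were chosen by name, and each is among the 24453 gene symbols counted. RNA was sequenced from back skin cells of newborn mice at postnatal day 0, sorted for EpCAM, Sca1 and strong α6-integrin staining, a gate for interfollicular epidermis enriched in progenitors. The control group (CTL, 2 libraries) is labelled Control, and the sources used here do not give its alleles. The mutant group (I53A, 2 libraries) is labelled Ring1a-/- Ring1b-/I53A: it lacks Ring1a (gene Ring1) and carries a null allele of Ring1b (gene Rnf2) over the I53A allele. Ring1a and Ring1b are the ubiquitin ligases of Polycomb repressive complex 1 (PRC1), and the study asked what PRC1 does in skin epithelium. The sources used here do not give the promoter or Cre line behind the null alleles, nor whether a library came from 1 animal or a pool. Libraries are named by the replicate number of their label.

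Vitamin A enters cells as retinol, which dehydrogenases such as RDH10 oxidise reversibly to retinal and which reductases such as DHRS3 restore. Retinaldehyde dehydrogenases of the ALDH1A family then oxidise retinal irreversibly to retinoic acid. CRABP proteins bind retinoic acid in the cytoplasm, and retinoic acid receptors, paired with RXR partners, bind response elements in DNA and switch transcription with the ligand. In skin, retinoids are known for their effects on keratinocyte differentiation, and RARγ with RXRα is the receptor pair best known in epidermis. Rarb, Crabp2 and Dhrs3 are textbook targets that retinoic acid induces, and the Rarb promoter holds the classical response element.

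Of the 9 genes 8 could be tested, and none of them passed the test between mutant and control epidermis: 0 were called higher and 0 lower (edgeR's quasi-likelihood test at a Benjamini-Hochberg adjusted p under 0.05, over all 14550 tested genes), while 6.71% of all tested genes were called. DESeq2 and limma-voom also called 0 of them. At an unadjusted p under 0.05 there were 3 (Crabp2, Rarg and Dhrs3), where 18.7% of all tested genes had such a p. The libraries of the 2 groups did not overlap for 4 of the 8 tested genes (Crabp2 and Aldh1a3, higher in the mutants, and Rarg and Dhrs3, lower), beside 47.9% of all tested genes. The median log2 fold change over the 8 genes was 0.23, against -0.01 over all tested genes. Offsets for GC content and length gave a median of 0.096 over the same 8 genes, in a fit where the median of all tested genes was -0.15. Leaving out control replicate 1 gave 0.0053 and leaving out mutant replicate 1 gave 0.43. These last medians are over 9 genes, since Aldh1a2 then passed the low-count filter. They are the values of Crabp1 and of Rarb in those fits. With 2 libraries a group, these values do not show that the pathway's genes were alike in the 2 genotypes, and the interval of each difference is given with each gene.

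A response element can be read in the promoter of Rarb, and it is shown because it is the sequence through which retinoic acid is known to act on this gene. RefSeq promoter windows (GRCm38.p6, 300 bases each, most of them before the start) matched 6 of the 9 genes with 12 windows. Crabp2, Aldh1a3 and Rdh10 had no window, so their promoters were not searched. The search was for a pair of hexamers in direct repeat, each read as AGGTCA, as GGGTCA, as AGTTCA or as GGTTCA, and separated by 5 bases, on both strands. Of all 32851 windows, 0.0974% held such a pair, and of the 12 windows of these genes 1 did, that of Rarb. The pair lies at chr14:16575513-16575529 on the minus strand, 53 to 37 bases before the start. Pairs separated by 1 or 2 bases, held by 0.222% and 0.268% of all windows, were in 0 of the 12. This start is the one RefSeq gives for the window, and it lies inside the span of the gene in GENCODE. The annotation behind the counts is not given. The 100 bases before it (chr14:16575477-16575576, minus strand) read as follows, with the hexamers in capitals.
Rarb: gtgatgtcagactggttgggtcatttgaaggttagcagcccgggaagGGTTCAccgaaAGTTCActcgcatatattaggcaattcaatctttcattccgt

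The windows also differed in CpG, the dinucleotide whose dense islands are known sites of Polycomb binding. The window of Aldh1a2 held 50 CpG, as many as or more than 99.3% of all windows, whose median was 7. The Rarb window and the Crabp1 window held 17 each, the windows of Dhrs3 held 9 to 21, those of Rara 5 to 21, and those of Rarg 10 and 12. No binding or methylation was measured in these samples, so the sequence is a description of the gene only. The 100 bases before the Aldh1a2 start (chr9:71215689-71215788, plus strand) hold 13 CpG, shown in capitals.
Aldh1a2: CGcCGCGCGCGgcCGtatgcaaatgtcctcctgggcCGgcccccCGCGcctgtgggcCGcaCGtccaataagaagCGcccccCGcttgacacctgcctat

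The libraries held 15505018 to 21543385 counts. Ring1 was at 28.7 ± 6.43 CPM (counts scaled to the size of the library) in controls and 2.73 ± 0.257 CPM in mutants (SD, n = 2 each). Rnf2 was at 58.5 and 45.8 CPM in controls and 58.9 and 59.1 CPM in mutants (adjusted p = 0.681, edgeR). Rnf2 counts do not read the I53A base. The defining genes of the sort and of basal epidermis (Epcam, Ly6a for Sca1, Itga6, Krt5 and Krt14) were present in every library, and 0 of 5 were called. Their summed level was 14950 to 17141 CPM in mutants and 21844 to 25661 CPM in controls. Most of it was Krt5, at 17517 and 21216 CPM in controls and 14040 and 11505 CPM in mutants. Krt14 was also lower in both mutants, and Ly6a and Itga6 overlapped. Epcam was higher in both mutants, at 133 and 159 CPM against 107 and 85.9 CPM in controls. Genes of other cells were present too. The summed level of 12 dermal fibroblast markers was 2936 and 3148 CPM in controls and 3407 and 3748 CPM in mutants, with 2 of 12 called higher. That of 12 hair follicle markers was 659 and 707 CPM in controls and 1001 and 1029 CPM in mutants, with 2 called higher and 1 lower of 11 tested.

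Levels were compared between genes after division by exon length, as CPM per kb. Rara was the highest, at 52.7 and 66.3 CPM per kb in control libraries 1 and 2. Rarg followed at 27.2 and 26.6 CPM per kb, then Dhrs3 at 7.89 and 7.18 and Rdh10 at 2.91 and 1.86 CPM per kb. These 4 kept apart from their neighbours in the order of control levels. From Crabp2 (1.62 and 0.551 CPM per kb) through Aldh1a3, Crabp1 and Rarb to Aldh1a2 (0.0263 and 0.351 CPM per kb), each gene overlapped with the next. In mutants the order of the first 3 was the same. There Crabp2, at 4.09 and 2.80 CPM per kb, came 4th, before Rdh10, with which it overlapped.

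**Figure D1:**
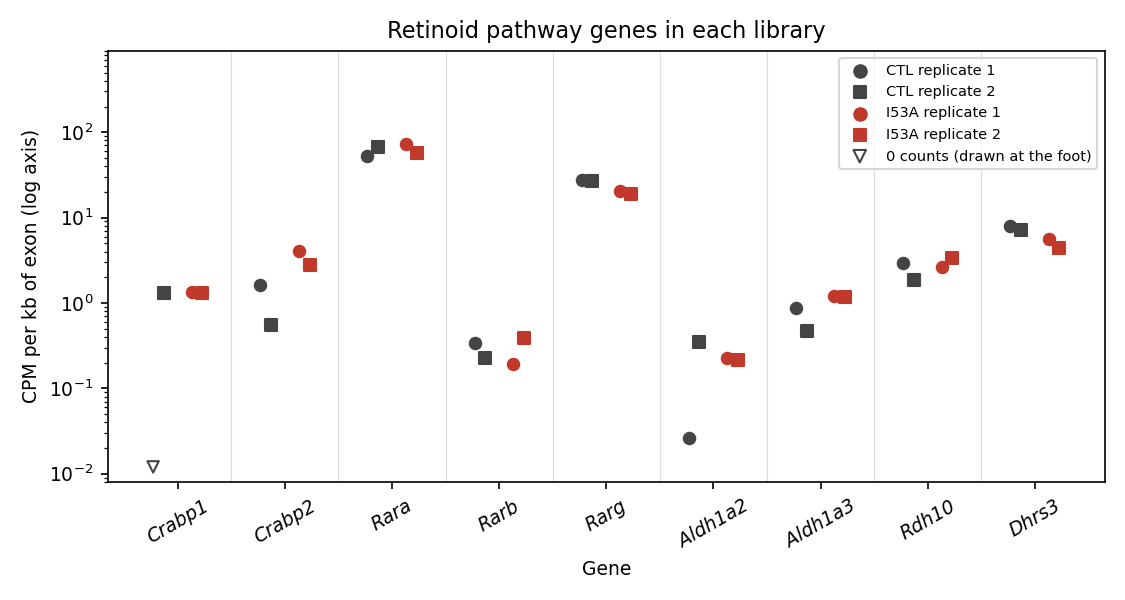
Level of each retinoid pathway gene in each library, as CPM per kb of exon on a log axis, with controls in grey, mutants in red, circles for replicate 1 and squares for replicate 2; the open triangle marks 0 counts. Rara and Rarg stand above the other genes in all 4 libraries, the mutant points lie below the control points for Rarg and Dhrs3, and they lie above them for Crabp2 and Aldh1a3.

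Among the binding proteins, Crabp2 had the largest difference of the 8 tested genes. CRABP2 carries retinoic acid to the receptors in the nucleus. The gene lies at chromosome 3 from 87948666 to 87953376 on the plus strand (GRCm38, the build also called mm10). Crabp2 had 36 and 11 counts in control libraries 1 and 2, or 2.14 and 0.729 CPM, and 85 and 84 counts in mutant libraries 1 and 2, or 5.41 and 3.70 CPM. Both mutant libraries lay above both controls, although the controls differed from each other by nearly as much as the nearer mutant did from the higher control. The mean was 1.44 ± 1.00 CPM in controls and 4.56 ± 1.21 CPM in mutants (SD, n = 2 each). The log2 fold change was 1.60 ± 0.55 (SE), with a 95% interval from 0.38 to 2.82 before adjustment, and it did not pass the test (adjusted p = 0.131, edgeR). It was 2.60 without control replicate 1 and 1.06 without control replicate 2 (adjusted p = 0.217 and 0.663). Crabp2 is also known from differentiating keratinocytes and from hair follicles. The suprabasal markers summed to 3422 and 4104 CPM in controls and 2404 and 4078 CPM in mutants, with 0 of 6 called, and the hair follicle markers are given above. The 9 dermal papilla markers, Crabp1 among them, summed to 19.2 CPM in each control and 39.8 and 35.9 CPM in mutant libraries 1 and 2, with Alpl and Prdm1 called higher of 7 tested. Prdm1 alone gave 25.1 and 25.6 CPM of the mutant sums, Rspo3 and Sox18 had lower means in mutants, and Sox2 had 0 counts in both controls and 1 and 5 in mutants. The part of these cells in the Crabp2 values was not tested, and in sorted bulk RNA more cells of a type and more RNA per cell cannot be told apart.

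Crabp1, whose product binds retinoic acid in the cytoplasm and is known from dermal fibroblasts, was near the limit of detection. It lies at chromosome 9 from 54764748 to 54773110 on the plus strand. Crabp1 had 0 and 16 counts in control libraries 1 and 2 and 17 and 24 counts in mutant libraries 1 and 2. On the CPM scale control replicate 2 and both mutants were alike, at 1.06, 1.08 and 1.06 CPM, and control replicate 1 stood apart, where 0 counts allow a level of up to 0.179 CPM (3 counts). The fitted log2 fold change, 1.07 with a 95% interval from -1.07 to 3.24 (adjusted p = 0.644, edgeR), rested on that library. Without control replicate 1 the Crabp1 difference was 0.01, and limma-voom gave 2.67 (adjusted p = 0.367). Crabp1 passed the low-count filter through 2 mutant libraries and 1 control library.

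Among the receptors, Rarg was lower in both mutants. RARγ is the receptor isotype best known in epidermis, and its gene lies at chromosome 15 from 102234938 to 102257517 on the minus strand. Rarg had 1947 and 1709 counts in control libraries 1 and 2, or 116 and 113 CPM, and 1379 and 1834 counts in mutant libraries 1 and 2, or 87.7 and 80.8 CPM. The groups did not overlap, and each pair of replicates lay close together. The mean was 115 ± 1.87 CPM in controls and 84.3 ± 4.89 CPM in mutants (SD, n = 2 each), that is 73.6% of the control level. The log2 fold change was -0.44 ± 0.14 (SE), with a 95% interval from -0.76 to -0.13 before adjustment, and it missed the threshold (adjusted p = 0.108, edgeR). It passed without mutant replicate 1 (log2 fold change -0.50, adjusted p = 0.0468). It also passed with offsets for GC content and length (-0.77, adjusted p = 0.00904), a fit in which the median of all tested genes moved from -0.01 to -0.15. Relative to that median the Rarg difference was -0.63 with the offsets and -0.43 without them.

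Rara, the receptor isotype expressed widely across tissues, lies at chromosome 11 from 98927818 to 98974942 on the plus strand. Control libraries 1 and 2 had 3865 and 4365 counts of Rara, and mutant libraries 1 and 2 had 5035 and 5602. On the CPM scale these were 230.1 and 289 in controls and 320.3 and 247 in mutants. The groups overlapped, with mutant replicate 2 between the controls. For Rara the log2 fold change was 0.13 ± 0.17 (SE), with a 95% interval from -0.25 to 0.51 (adjusted p = 0.783, edgeR), which as a fold runs from 0.838 to 1.42. The sign of the Rara difference turned without control replicate 1 (-0.03), without mutant replicate 1 (-0.07) and under offsets for GC content and length (-0.22). Relative to the median of all tested genes in the offset fit (-0.15), the Rara difference was -0.070.

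Rarb, the receptor isotype whose promoter sequence is printed above, was the least abundant receptor gene. It lies at chromosome 14 from 16430839 to 16819156 on the minus strand. Rarb had 30 and 18 counts in control libraries 1 and 2, or 1.79 and 1.19 CPM, and 16 and 46 counts in mutant libraries 1 and 2, or 1.02 and 2.03 CPM. The lowest and the highest library were both mutants, so the groups overlapped completely. The log2 fold change was 0.09 ± 0.60 (SE) with a 95% interval from -1.25 to 1.43 (adjusted p = 0.966, edgeR). Its sign turned when control replicate 2 (-0.17) or mutant replicate 2 (-0.56) was left out. With the offsets the Rarb difference was -0.05, in a fit where the median of all tested genes was -0.15. Relative to that median it was 0.095. At this depth a change of up to 2.69-fold lies within the interval. Exons of Rarb overlap those of Top2b on the opposite strand, and the strand setting of the counting is not given, so reads of the shared stretch are uncertain.

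The make-up of the receptor mRNA can be read within a library, where the scaling cancels. Of the summed CPM per kb of the 3 receptor genes, Rara took 65.7% and 71.2% in control libraries 1 and 2, and 77.9% and 74.5% in mutant libraries 1 and 2. Rarg took 33.9% and 28.6% in controls and 21.9% and 25.0% in mutants. Rarb took 0.205% to 0.507% over the 4 libraries. With so little Rarb, the shares of Rara and Rarg mirror each other. These shares did not overlap between the groups, although the CPM of Rara did, and they are given as a description, without a test. Rxra, the partner of these receptors best known in epidermis, was at 611 and 608 CPM in controls and 563 and 532 CPM in mutants (log2 fold change -0.16 ± 0.13, adjusted p = 0.624, edgeR), and it passed the threshold with the offsets and the replicate block together (-0.48, adjusted p = 0.0451).

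Of the enzymes that make retinoic acid, Aldh1a3 had a higher mean in mutants but did not pass the test. The gene lies at chromosome 7 from 66390890 to 66427517 on the minus strand. Aldh1a3 had 68 and 33 counts in control libraries 1 and 2, or 4.05 and 2.19 CPM, and 88 and 122 counts in mutant libraries 1 and 2, or 5.60 and 5.38 CPM. The mutants lay close together and above both controls, while the controls differed more from each other than the higher one did from the mutants. The mean was 3.12 ± 1.32 CPM in controls and 5.49 ± 0.157 CPM in mutants (SD, n = 2 each). For Aldh1a3 the log2 fold change was 0.79 ± 0.42 (SE), with a 95% interval from -0.13 to 1.73 (adjusted p = 0.362, edgeR). It was 1.32 without control replicate 1 and 0.44 without control replicate 2 (adjusted p = 0.463 and 0.911).

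Rdh10, which starts the pathway by oxidising retinol, lies at chromosome 1 from 16105774 to 16133734 on the plus strand. It had 203 and 117 counts in control libraries 1 and 2, or 12.1 and 7.75 CPM, and 171 and 320 counts in mutant libraries 1 and 2, or 10.9 and 14.1 CPM. Mutant replicate 1 lay between the controls, so the groups overlapped. Its log2 fold change was 0.34 ± 0.30 (SE) with a 95% interval from -0.34 to 1.01 (adjusted p = 0.646, edgeR). It was 0.69 without control replicate 1, 0.06 without control replicate 2 and 0.12 without mutant replicate 2.

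Aldh1a2, the main retinoic acid synthase of early embryos, had the lowest mean CPM per kb of the 9 genes in both groups. It was left out of the test. It lies at chromosome 9 from 71215789 to 71296243 on the plus strand. Rarb was lower than Aldh1a2 in control replicate 2 (0.227 against 0.351 CPM per kb) and in mutant replicate 1 (0.193 against 0.225 CPM per kb). Aldh1a2 had 1 and 12 counts in control libraries 1 and 2 and 8 and 11 counts in mutant libraries 1 and 2, or 0.0595, 0.795, 0.509 and 0.485 CPM. As with Crabp1, control replicate 1 was the low library and the other 3 were close. It failed the low-count filter, since 1 control and 0 mutant libraries reached the required level, and DESeq2, which kept it, gave an adjusted p of 0.983, as edgeR without the filter gave 0.938. Control replicate 1 was also the lowest of the 4 libraries in its 6 endothelial markers (13.8 CPM summed, against 43.7, 28.0 and 32.2 CPM). Its sums of dermal fibroblast, hair follicle and melanocyte markers were the lowest too (melanocyte: 20.6 CPM, against 27.8, 30.3 and 27.1 CPM). That held for the sums and not for each gene, and in the other marker lists another library was the lowest. The part of any of these cells in the Crabp1 and Aldh1a2 counts was not tested.

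Dhrs3, which reduces retinal back to retinol and so limits retinoic acid, had a lower mean in the mutants. The gene lies at chromosome 4 from 144892827 to 144928209 on the plus strand. Dhrs3 had 388 and 317 counts in control libraries 1 and 2, or 23.1 and 21.0 CPM, and 256 and 293 counts in mutant libraries 1 and 2, or 16.3 and 12.9 CPM. Both mutants lay below both controls. The mean was 22.1 ± 1.48 CPM in controls and 14.6 ± 2.39 CPM in mutants (SD, n = 2 each), 66.2% of the control level. The log2 fold change was -0.61 ± 0.23 (SE), with a 95% interval from -1.12 to -0.09 before adjustment, and it missed the threshold (adjusted p = 0.177, edgeR).

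**Figure D2:**
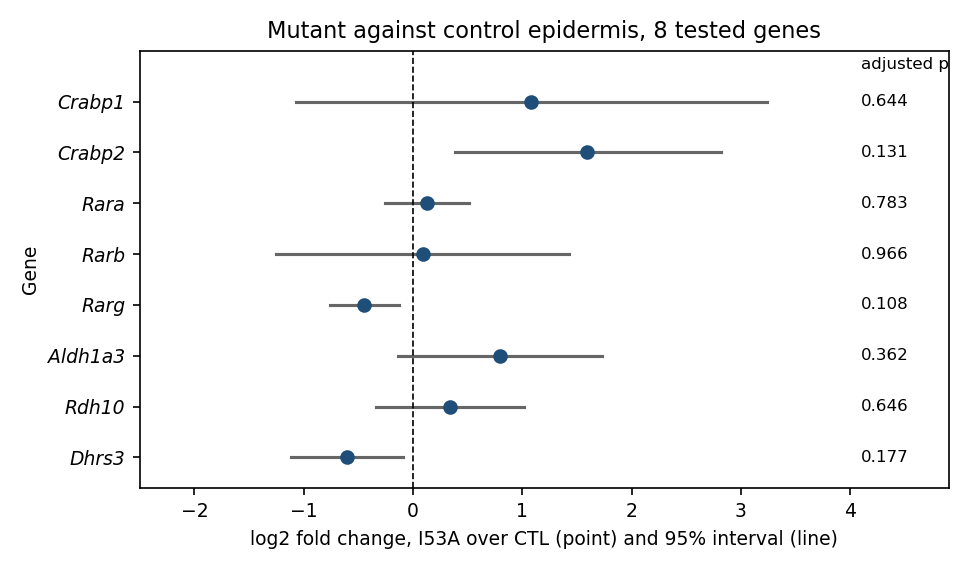
Log2 fold change of mutant over control epidermis for the 8 tested genes (points) with the 95% interval of each gene before adjustment (lines) and the adjusted p at the right. The intervals of Crabp2, Rarg and Dhrs3 leave out 0, none of the adjusted p-values is under 0.05, and the low-count genes Crabp1 and Rarb have the widest intervals.

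Rarg, Dhrs3 and Crabp2 were the genes whose call depended on the fit. With the replicate number as a block together with the GC content and length offsets, 3 of the 8 were called: Crabp2 higher (log2 fold change 1.73, adjusted p = 0.0144) and Rarg and Dhrs3 lower (-0.78 and -0.74, adjusted p = 0.00016 and 0.0332, edgeR). The directions of these 3 and of Aldh1a3 were the same in all 14 other settings.

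**Figure D3:**
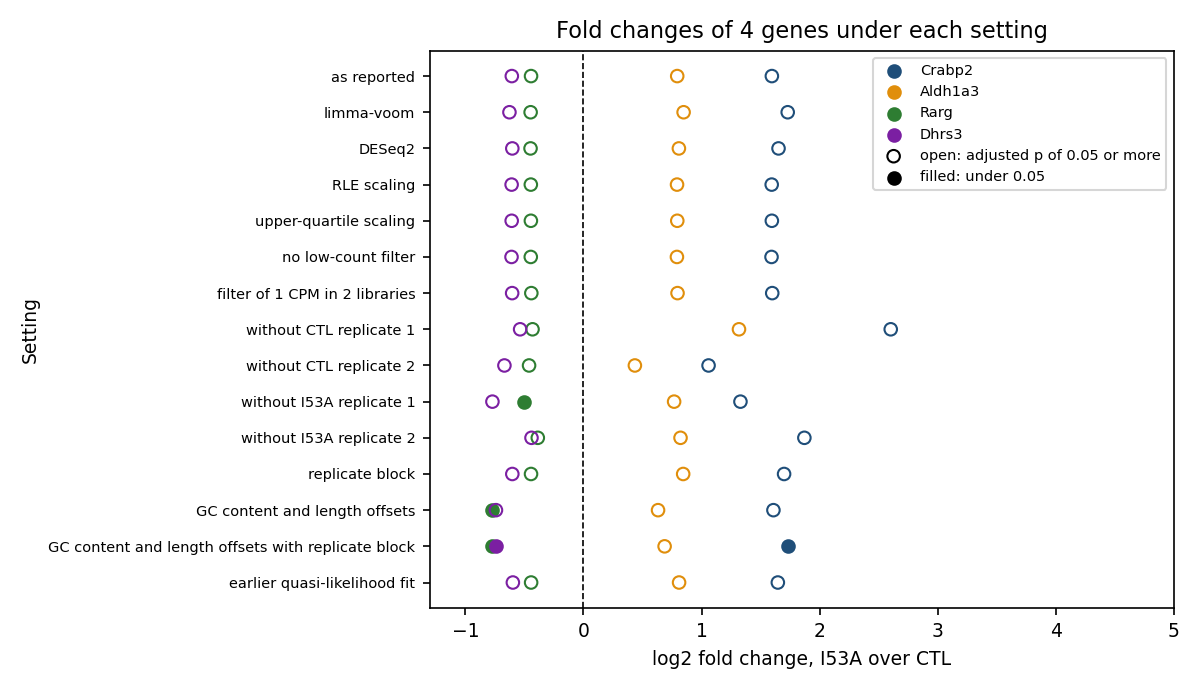
Log2 fold change of mutant over control epidermis for Crabp2, Aldh1a3, Rarg and Dhrs3 as reported and in 14 other settings, filled where the adjusted p is under 0.05. Each gene stays on its side of 0 in every setting shown, Crabp2 spreads most, from 1.06 to 2.60, and only Rarg is filled in more than 1 setting.

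The wider retinoid pathway was read from a list of 71 other counted genes, of which 49 were tested, 6 had 0 counts in every library and the rest failed the low-count filter. Of the 49, 4 rose and 1 fell, beside 5.68% of all tested genes called higher and 1.04% called lower. The median log2 fold change was 0.03. Of these 5 calls, 0 held without control replicate 1, where 289 of all genes were called in place of 977 and 8 of the list had an unadjusted p under 0.05. The log2 fold changes there were 1.27 for Scarb1, 1.61 for Hbegf, 1.65 for Meis1, 1.01 for Meis2 and -1.62 for Adh1. There were 4 calls without control replicate 2, 8 without mutant replicate 1 and 9 without mutant replicate 2. With the GC content and length offsets 4 genes of the list were called higher and 3 lower, in a fit that called 710 of all genes higher and 664 lower in place of 826 and 151.

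In the uptake of vitamin A and its precursors, Scarb1, a scavenger receptor that takes up carotenoids and lipoprotein lipids, was at 14.6 and 14.0 CPM in control libraries 1 and 2 and at 34.9 and 32.7 CPM in mutant libraries 1 and 2. It rose by 1.24 ± 0.20 on the log2 scale (SE, adjusted p = 0.00466, edgeR; 0.0864 without control replicate 1). It was the 1 call among 3 tested genes of uptake and retinol carriage.

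Among 13 tested enzymes that interconvert retinol and retinal, Adh1 fell and none rose. Adh1 encodes an alcohol dehydrogenase that clears excess retinol. Its level was 36.4 and 17.4 CPM in control libraries 1 and 2 and 3.37 and 7.62 CPM in mutant libraries 1 and 2, with -2.24 ± 0.42 as the log2 fold change (SE, adjusted p = 0.00939, edgeR; 0.164 without control replicate 1). It was -3.01 without mutant replicate 2. Every mutant value lay below the lower control, which adds nothing to the call of a gene named for passing the threshold. Adh5, which had the highest CPM of this role before division by length, was at 65.4 ± 0.790 CPM in controls and 51.7 ± 15.0 CPM in mutants (SD, n = 2 each; adjusted p = 0.444). Its log2 fold change was -0.33, and it passed the threshold without mutant replicate 2 (-0.67, adjusted p = 0.0223) and with offsets and block together (-0.50, adjusted p = 0.0421), but was -0.07 without mutant replicate 1. Aldh1a7, the 1 tested gene of the list among the other retinal oxidising and carotenoid cleaving enzymes, was at 3.21 and 2.05 CPM in controls and 1.15 and 1.19 CPM in mutants (log2 fold change -1.18 ± 0.55, adjusted p = 0.286, edgeR).

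Retinyl ester storage, retinoic acid clearance, the other receptors and carriers, and the coregulators held no call among 3, 2, 4 and 11 tested genes. Dgat1, an acyltransferase that also esterifies retinol, was at 27.0 ± 1.10 CPM in controls and 27.3 ± 7.28 CPM in mutants (SD, n = 2 each). Cyp2s1, a cytochrome P450 of epithelia, was at 23.2 ± 0.0156 CPM in controls and 20.4 ± 9.37 CPM in mutants. Crebbp, a histone acetyltransferase that receptors recruit, was at 807 ± 10.9 CPM in controls and 813 ± 35.4 CPM in mutants. For all 3 genes the mutant pair spread more widely than the groups differed.

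Of 12 tested genes known to respond to retinoic acid, 3 rose and none fell. Meis2, a homeobox partner of Hox proteins, was at 73.8 and 81.2 CPM in control libraries 1 and 2 and at 156 and 173 CPM in mutant libraries 1 and 2 (log2 fold change 1.09 ± 0.15, adjusted p = 0.00151, edgeR; 0.0701 without control replicate 1). Its relative Meis1 was at 18.0 and 11.5 CPM in controls and 44.3 and 28.1 CPM in mutants (1.28 ± 0.29, adjusted p = 0.0237; 0.0764 and 0.130 without control replicate 1 or 2). Hbegf, a growth factor of keratinocytes, was at 9.58 and 8.28 CPM in controls and 30.9 and 20.2 CPM in mutants (1.50 ± 0.28, adjusted p = 0.00928; 0.0997 without control replicate 1). The groups did not overlap for any of these 3, as for 47.9% of all tested genes. These genes are named for passing the threshold, so the lack of overlap adds nothing to their calls. The dermal fibroblast and hair follicle marker sums given above were also higher in both mutants, and their part in these increases was not tested. Egr1, the gene of this group with the highest level and an immediate early gene, was at 1613 and 1212 CPM in controls and 2501 and 1290 CPM in mutants, so its groups overlapped (adjusted p = 0.470). Its log2 fold change was 0.42, with -0.13 without mutant replicate 1 and 0.82 without mutant replicate 2 (adjusted p = 0.692 and 0.00121). The retinoic acid targets among the 9 genes, Crabp2, Rarb and Dhrs3, had log2 fold changes of 1.60, 0.09 and -0.61, none past the threshold.

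**Figure D4:**
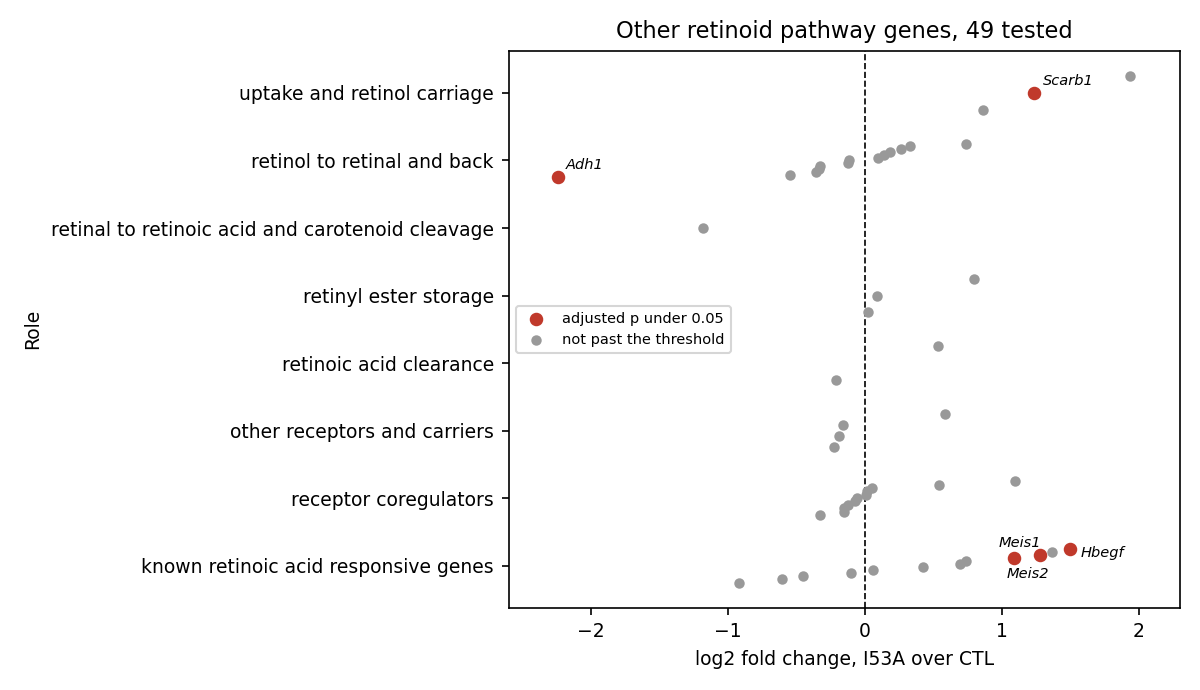
Log2 fold change of mutant over control epidermis for the 49 other tested genes of the retinoid pathway, by role, with genes past the threshold in red and named. Scarb1, Meis1, Meis2 and Hbegf lie to the right, Adh1 lies at -2.24 on the left, and the other 44 genes did not pass.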

How the data were processed

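Per the labels' protocols, 10 ng of total RNA from the sorted cells was amplified, and single reads of 100 nucleotides were sequenced. Each library has 1 file of raw read counts by gene symbol, as deposited by the authors. Tools in the submitters' processing notes are HTSeq 0.6.1, TopHat2 2.0.13, DESeq2 1.6.3 and Cufflinks 2.2.1, and the build is mm10. For their roles, the annotation and the strand setting, nothing is stated in the sources used here.

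Groups and replicate numbers came from the labels. Nothing says whether libraries of a group came from separate animals, so p-values measure the spread between libraries, which differed by more than counting noise. Genes were kept by filterByExpr (minimum count 10) and compared with edgeR 4.0.16 in R 4.3.3 (TMM scaling, its newer quasi-likelihood fit, two-sided, no block). CPM is counts over the TMM-scaled library size. Gene positions and exon lengths (union of exons) came from GENCODE M21, which matched 98% of tested genes. Also run were limma-voom (limma 3.58.1), DESeq2 1.42.0, other scalings and filters, each library left out, a replicate block and loess offsets (span 0.5). Code was tested on simulated data. The 95% intervals come from the edgeR fit and include the spread between libraries, while the floors of 3 counts cover counting error only.

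The members and lists were chosen with earlier results of these data known. Named genes are the 9 members, the pathway genes past the threshold and the most abundant tested gene of each role. No member passed the threshold, so no genes of like pattern were sought.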

Additional observations from a re-analysis of the deposited data

How the results depend on the processing

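Limits are set by 2 libraries a group and by low counts: Crabp1, Crabp2, Rarb and Aldh1a2 had fewer than 100 counts in each library. With 1 library left out, the lone library of its group is taken to vary as the other pair does.

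The count of all called genes was 977, and 289 to 1586 with 1 library left out (289 without control replicate 1, 603 without control replicate 2, 1580 without mutant replicate 1 and 1586 without mutant replicate 2). Offsets for GC content and length gave 1374, of which 710 were higher and 664 lower against 826 and 151 as reported. It was 1274 with the replicate block and 2300 with the offsets and the replicate block together. Same-numbered libraries hardly deviated together (correlation over genes 0.036), and no label says that a number marks a litter or batch, so the block was not used. The count of called members was 0, and 0 to 1 with 1 library left out. It was 1 with the offsets, 0 with the replicate block and 3 with both. The count of other pathway genes was 5, and 0 to 9 with 1 library left out, 7 with the block and 10 with both. The other tools, scalings and filters, and edgeR's earlier fit, which was added after seeing the data, left each count within 1.5 times.

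Of 112 member values, 99 kept direction and call. With 1 library left out, the log2 fold change ran from -0.070 to 0.30 for Rara, from -0.56 to 0.43 for Rarb, from -0.29 to 0.26 for Dgat1, from -0.75 to 0.22 for Cyp2s1, from -0.036 to 0.056 for Crebbp and from -0.13 to 0.82 for Egr1. With the offsets, and with offsets and block together, it turned to -0.22 and -0.22 for Rara, -0.050 and -0.093 for Rarb, -0.22 and -0.24 for Dgat1, and -0.34 and -0.35 for Crebbp. With the block alone it turned to -0.0054 for Dgat1. The cause of these turns was not tested. In the offset fits the median of all tested genes was itself -0.146, and -0.150 with the block. Relative to these medians the difference was -0.070 and -0.074 for Rara and 0.095 and 0.056 for Rarb.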

Other observations

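A few genes of the pathway that the rule for named genes leaves out were chosen after their values were seen. Cyp26a1, a retinoic acid hydroxylase that retinoic acid strongly induces, had 4 and 7 counts in controls and 0 counts in both mutants, which allows levels of up to 0.191 and 0.132 CPM in mutant replicates 1 and 2. It failed the low-count filter, and edgeR without that filter gave an adjusted p of 0.297. Aldh1a1, another retinaldehyde dehydrogenase gene, had 4 and 20 counts in controls and 2 and 0 in mutants (adjusted p = 0.251, edgeR without the filter). Dhrs9, a retinol dehydrogenase gene, had 1 count in each control and 14 and 13 counts in mutants (adjusted p = 0.224, edgeR without the filter).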
